A study of Mus musculus with 9 samples.

Results

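The levels of 8 transcripts were followed through 9 cultures of mouse regulatory T cells (Tregs): Cd8a and Cd8b1, the adhesion receptor gene Crtam, the transcription factor gene Eomes, and the NK cell receptor genes Klrk1, Klrd1, Klrc1 and Klre1. They were chosen by symbol as genes of CD8 T cells and NK cells, and all 8 were matched among the 43432 Ensembl genes of the counts table. All 8 also passed the filter on low counts that left 13685 genes to test. The Ezh2-deficient group (n = 4) was Ezh2-fl/fl. In the WT group (n = 5), replicate 1 was Ezh2-fl/+ and replicates 2 to 5 were Ezh2-+/+. All 9 carried Foxp3-Cre-GFP, a Cre recombinase with GFP, and R26-LSL-RFP, a red reporter that Cre switches on, on a C57BL/6 background. The Cre is expressed with Foxp3, which limits the deletion to cells that have expressed Foxp3. CD62L-high Tregs had been sorted, activated with beads against CD3 and CD28 and grown with 2000 U/ml interleukin-2, and RNA was taken at day 4. The labels do not say whether a library came from 1 mouse or from pooled mice.

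CD8 is a coreceptor that binds MHC class I, as a homodimer of the alpha chain (Cd8a) or a heterodimer with the beta chain (Cd8b1), and marks cytotoxic T cells, whereas Tregs belong to the CD4 lineage. Klrk1 encodes the activating receptor NKG2D. Klrd1 encodes CD94, which pairs with NKG2 chains such as the inhibitory NKG2A (Klrc1), and Klre1 encodes a related lectin-like receptor. Crtam is an adhesion receptor of activated CD8 T cells and NK cells and of some CD4 T cells that acquire cytotoxic features. Eomes is a T-box transcription factor of cytotoxic lymphocytes. In RNA from a whole culture, a few cells with a high level and many cells with a low level of a transcript cannot be told apart.

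The loci lie in tight neighbourhoods. On GRCm38, Cd8b1 (ENSMUSG00000053044) occupies chromosome 6 from 71322788 to 71337494 and Cd8a (ENSMUSG00000053977) from 71373427 to 71379173, with 35.9 kb between them. The 4 receptor genes sit within 101 kb of the NK gene complex, in the order Klre1 (ENSMUSG00000050241; 129577905 to 129585827), Klrd1 (ENSMUSG00000030165; 129591782 to 129598775), Klrk1 (ENSMUSG00000030149; 129610323 to 129623864) and Klrc1 (ENSMUSG00000030167; 129666015 to 129678973). Ezh2 is on the same chromosome, 23727 kb from Cd8b1. Crtam (ENSMUSG00000032021; 40969691 to 41004628) and Eomes (ENSMUSG00000032446; 118478212 to 118486132) are on chromosome 9. All 8 genes are protein coding. Eomes shares 118 exon bases with an antisense gene that is not among the rows of the table, and no other member overlaps an annotated gene.

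RefSeq gives a promoter window of 300 bases (GRCm38.p6; 250 before to 50 after a start) for 5 of the 8 members. The windows of Cd8a and of 3 receptor genes are shown. Those receptor genes are neighbours that were all at or near 0 in the same 2 cultures. In WT replicate 3, where Cd8a was at 1.98 CPM, Klrk1 was the lowest of the WT group at 1.61 CPM. There Klrc1 (0.373 CPM) and Klre1 (0.516 CPM) lay within the range of the other WT libraries. The 3 motifs searched on both strands were the Runx motif TGTGGT, the hypoxia response core ACGTG and the T-box core GGTGTGA. Capitals mark each match, and sequences read 5′ to 3′ on the strand of the gene. The Cd8a window is chr6:71373177-71373476 (plus strand), the Klrk1 window chr6:129623815-129624114 (minus), the Klrc1 window chr6:129678924-129679223 (minus) and the first of 2 Klre1 windows chr6:129577963-129578262 (plus).
Cd8a: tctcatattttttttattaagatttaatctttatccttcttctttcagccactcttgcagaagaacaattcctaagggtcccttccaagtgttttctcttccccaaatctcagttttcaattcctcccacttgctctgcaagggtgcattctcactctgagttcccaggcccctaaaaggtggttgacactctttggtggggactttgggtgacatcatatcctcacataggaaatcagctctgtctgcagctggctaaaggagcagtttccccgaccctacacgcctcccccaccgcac
Klrk1: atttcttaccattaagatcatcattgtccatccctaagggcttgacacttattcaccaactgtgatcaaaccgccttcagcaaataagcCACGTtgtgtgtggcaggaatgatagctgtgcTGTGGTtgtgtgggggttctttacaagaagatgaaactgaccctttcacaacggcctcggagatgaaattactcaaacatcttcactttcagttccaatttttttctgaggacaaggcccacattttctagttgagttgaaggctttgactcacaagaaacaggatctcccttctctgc
Klrc1: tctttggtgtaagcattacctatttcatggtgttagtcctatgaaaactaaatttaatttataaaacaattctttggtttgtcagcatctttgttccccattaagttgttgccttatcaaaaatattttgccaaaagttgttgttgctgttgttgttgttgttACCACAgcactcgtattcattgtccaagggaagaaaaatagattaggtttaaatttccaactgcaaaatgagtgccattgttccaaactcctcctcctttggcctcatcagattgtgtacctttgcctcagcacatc
Klre1: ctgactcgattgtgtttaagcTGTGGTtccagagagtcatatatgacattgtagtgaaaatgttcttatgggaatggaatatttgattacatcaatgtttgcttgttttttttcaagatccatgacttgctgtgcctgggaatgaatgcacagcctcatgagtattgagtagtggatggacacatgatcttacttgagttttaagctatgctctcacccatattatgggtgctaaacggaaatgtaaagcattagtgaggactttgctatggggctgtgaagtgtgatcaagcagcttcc
The 3 receptor windows shown each held 1 Runx motif, and the Klrk1 window also held 1 hypoxia response core, apart from the Runx motif. The second Klre1 window and the Cd8a and Eomes windows held no match. Of all 32851 promoter windows of this length, 16.8% held the Runx motif, 19.6% the hypoxia response core and 3.98% the T-box core. A match describes the letters of the window and does not show that a factor binds there.

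The cultures had the transcripts of CD4 Tregs throughout. Foxp3 was at 1293 to 1968 CPM (counts divided by the TMM-scaled library size, which sets all libraries to one depth) and Cd4 at 392 to 487 CPM over the 9 libraries. Total counts were 33718125 to 62201921 per Ezh2-deficient and 32469450 to 59796319 per WT library. Ezh2, whose counts include exons outside any deleted part, was at 153 to 167 CPM in the Ezh2-deficient and 234 to 360 CPM in the WT libraries. The test used throughout was edgeR's two-sided quasi-likelihood test with Benjamini-Hochberg adjustment at a threshold of 0.05, and 21.9% of the 13685 genes passed it. The groups did not overlap in CPM for 21.2% of the genes.

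Against that background, 1 of the 8 members passed the test and 0 fell. Crtam rose in the Ezh2-deficient cultures, and it was also the only one of the 8 whose groups did not overlap. The median log2 fold change of the 8 was -0.32, and that of all tested genes was 0.00262. For Cd8a and the 4 receptor genes the spread within the Ezh2-deficient group was wide, with an SD above the mean in each case.

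**Figure D1:**
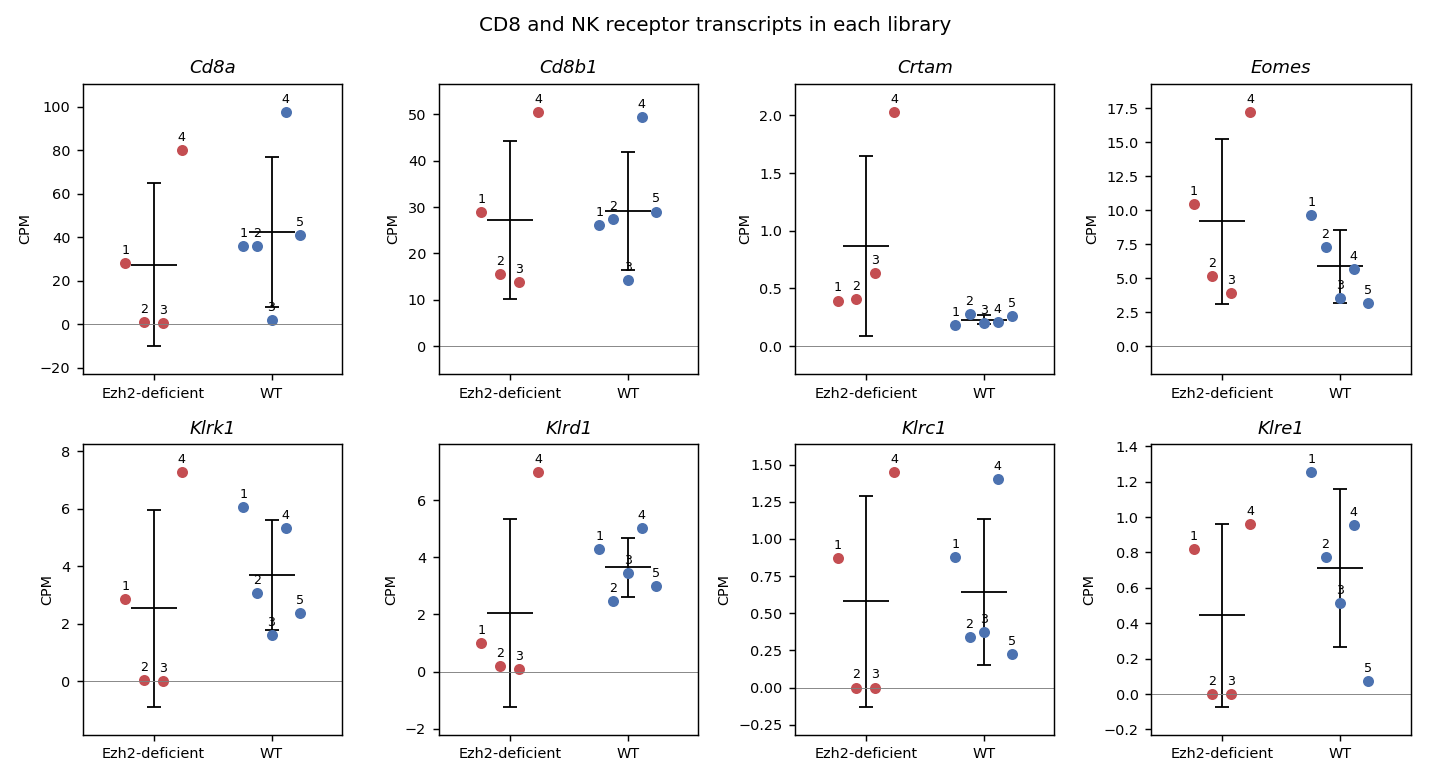
CPM of the 8 transcripts in each library (vertical axes, each with its own range), with replicate numbers beside the points and the mean and SD of each group in black. Ezh2-deficient replicates 2 and 3 lie at or near 0 for Cd8a and the 4 Klr genes, replicate 4 is the highest of its group in every panel, and the Crtam panel is the only one in which the groups do not overlap.

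The 2 CD8 chains differed in how low they went. Cd8a was at 28.3, 0.936, 0.361 and 79.9 CPM in Ezh2-deficient replicates 1 to 4. In WT replicates 1 to 5 it was at 35.8, 35.9, 1.98, 97.6 and 41.1 CPM. Thus 6 libraries held at least 28.3 CPM, and Ezh2-deficient replicates 2 and 3 and WT replicate 3 held less than 2 CPM, from 41, 12 and 69 counts. The exact 95% counting interval of the lowest was 0.187 to 0.631 CPM. Mean Cd8a was 27.4 ± 37.4 CPM (SD, n = 4) for the Ezh2-deficient group against 42.5 ± 34.5 CPM (SD, n = 5) for WT. The groups overlapped almost completely, and no change was called (log2 fold change -0.62, SE 1.45, adjusted p = 0.796).

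Cd8b1 never fell below 13.9 CPM. It was at 28.8, 15.4, 13.9 and 50.6 CPM in Ezh2-deficient replicates 1 to 4. In WT replicates 1 to 5 it was at 26.1, 27.3, 14.2, 49.5 and 29.0 CPM. The 3 libraries with little Cd8a were again the lowest, but here at 13.9 to 15.4 CPM, and the same 2 libraries, replicate 4 of each group, were the highest. Its mean was 27.2 ± 17.0 CPM (SD, n = 4) in the Ezh2-deficient group and 29.2 ± 12.8 CPM (SD, n = 5) in WT cultures, with no call (log2 fold change -0.10, SE 0.46, adjusted p = 0.902).

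Per kilobase of exon, which makes the 2 genes comparable, Cd8b1 exceeded Cd8a in 9 of 9 libraries. The level of Cd8b1 divided by that of Cd8a was 1.24 to 2.50 in the 6 libraries with more Cd8a. It was 17.6 in WT replicate 3 (exact 95% counting interval 13.6 to 22.9), 40.4 in Ezh2-deficient replicate 2 (29.5 to 56.9) and 94.2 in Ezh2-deficient replicate 3 (53.4 to 184). The 2 chains were therefore not present in a fixed proportion: while Cd8a ranged from 0.0993 to 26.8 CPM per kilobase, Cd8b1 ranged from 9.36 to 34.1. Relative to 100 units of Cd4 per kilobase, Cd8a stood at 0.0923 to 22.6 and Cd8b1 at 8.31 to 35.1. With the length of the longest transcript in place of all exons, the ratio in the same 9 libraries was 1.07 to 81.0.

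**Figure D2:**
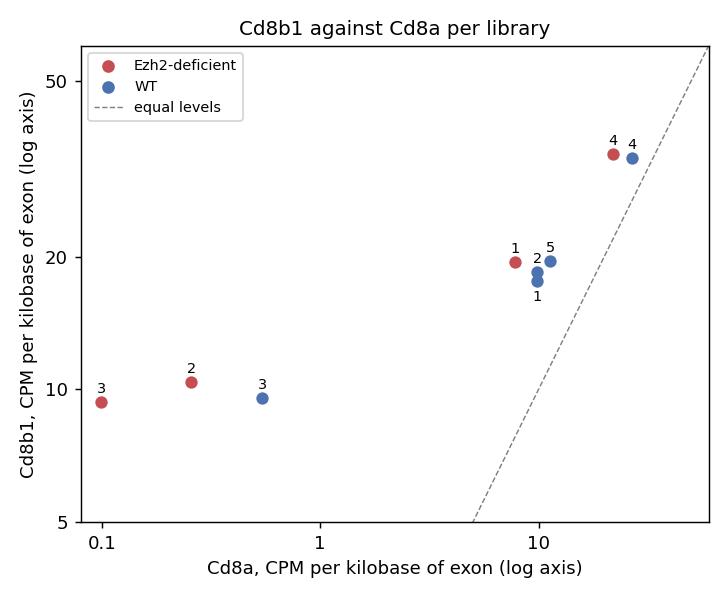
Cd8b1 (vertical) against Cd8a (horizontal), both in CPM per kilobase of exon on log axes, 1 point per library with its replicate number. The points lie above the dashed line of equal levels, and 3 libraries with Cd8a under 1 CPM per kilobase keep Cd8b1 at 9.36 to 10.4.

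Crtam was scarce in every culture and lowest in WT. It was at 0.395, 0.411, 0.632 and 2.03 CPM in Ezh2-deficient replicates 1 to 4, from 14, 18, 21 and 125 counts. In WT replicates 1 to 5 it was at 0.186, 0.278, 0.201, 0.212 and 0.262 CPM, from 7 to 14 counts each. All 4 Ezh2-deficient libraries lay above all 5 WT libraries. The exact 95% counting interval of WT replicate 2 was 0.127 to 0.527 CPM. Those of Ezh2-deficient replicates 1 (0.216 to 0.662), 2 (0.244 to 0.65) and 3 (0.391 to 0.966) overlapped it. That of Ezh2-deficient replicate 4 (1.69 to 2.42 CPM) lay above every WT interval. The means were 0.868 ± 0.784 CPM (SD, n = 4) against 0.228 ± 0.0399 CPM (SD, n = 5), a rise of 1.95 on the log2 scale (SE 0.52, adjusted p = 0.0199). Without Ezh2-deficient replicate 4 the log2 fold change was 1.04 and the call was lost (adjusted p = 0.11; 0.00726 to 0.162 over all alternatives). Replicate 4 also had the most Cd8a of its group, and the part of CD8 transcripts in the Crtam rise was not tested. Ezh2-deficient replicates 2 and 3, which held 0.936 and 0.361 CPM of Cd8a, had more Crtam than any WT library, with the overlap of counting intervals given above.

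Eomes was found in every library, at 3.20 to 17.2 CPM. It was at 10.4, 5.16, 3.91 and 17.2 CPM in Ezh2-deficient replicates 1 to 4. In WT replicates 1 to 5 it was at 9.62, 7.31, 3.50, 5.69 and 3.20 CPM. The groups overlapped, with 2 Ezh2-deficient libraries above and 2 within the WT range. Mean Eomes was 9.19 ± 6.07 CPM (SD, n = 4) in the Ezh2-deficient group against 5.86 ± 2.69 CPM (SD, n = 5), and the difference missed the threshold (log2 fold change 0.65, SE 0.46, adjusted p = 0.335). Within the Ezh2-deficient group its order was that of Cd8a, with replicates 4, 1, 2 and 3 from highest to lowest. In WT it was not: replicate 5, with 41.1 CPM of Cd8a, had the least Eomes of the 9. Across the groups, Ezh2-deficient replicate 2, with 0.936 CPM of Cd8a, had more Eomes than WT replicates 3 and 5. The related T-box gene Tbx21, which encodes T-bet, was at 0.391 to 3.24 CPM in the Ezh2-deficient and 1.10 to 3.17 CPM in the WT libraries.

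The 4 receptor transcripts were nearly absent from 2 Ezh2-deficient cultures and present in all others. Klrk1 was at 2.85, 0.0228, 0 and 7.27 CPM in Ezh2-deficient replicates 1 to 4, and at 6.06, 3.09, 1.61, 5.34 and 2.38 CPM in WT replicates 1 to 5. Klrd1 was at 0.987, 0.206, 0.0903 and 6.97 CPM, and at 4.30, 2.47, 3.44, 5.03 and 3.01 CPM. In Ezh2-deficient replicates 2 and 3 the 4 genes summed to 10 and 3 counts, whereas the other 7 libraries held 196 to 1024. A count of 0 in these 2 libraries allows up to 0.0685 and 0.0903 CPM (3 counts each, counting error only).

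Klrc1 and Klre1 followed the same outline at lower levels. Klrc1 was at 0.874, 0, 0 and 1.45 CPM in Ezh2-deficient replicates 1 to 4, and at 0.88, 0.339, 0.373, 1.40 and 0.224 CPM in WT replicates 1 to 5. Klre1 was at 0.818, 0, 0 and 0.959 CPM, and at 1.25, 0.771, 0.516, 0.952 and 0.0748 CPM. Klre1 was lowest among the WT libraries in replicate 5, with 4 counts. Klrc1 has near-identical neighbours in Klrc2 and Klrc3, whose reads may be shared, so its counts are uncertain.

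In none of the 4 did the change pass the test with all 9 libraries. The log2 fold changes were -0.52 for Klrk1 (SE 1.20, adjusted p = 0.792), -0.78 for Klrd1 (SE 0.97, adjusted p = 0.598), -0.11 for Klrc1 (SE 1.04, adjusted p = 0.954) and -0.64 for Klre1 (SE 1.03, adjusted p = 0.69). For Klrd1 this rests on Ezh2-deficient replicate 4. Its 6.97 CPM was the highest value of all 9 libraries, while replicates 1 to 3 lay below every WT library. Without replicate 4, Klrd1 fell by 3.12 on the log2 scale (SE 0.60, adjusted p = 0.00557; 0.00557 to 0.775 over all alternatives). Klrc1, whose product pairs with that of Klrd1, was at -1.19 in that fit and Klrk1 at -1.99, and neither passed (adjusted p = 0.515 and 0.324).

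**Figure D3:**
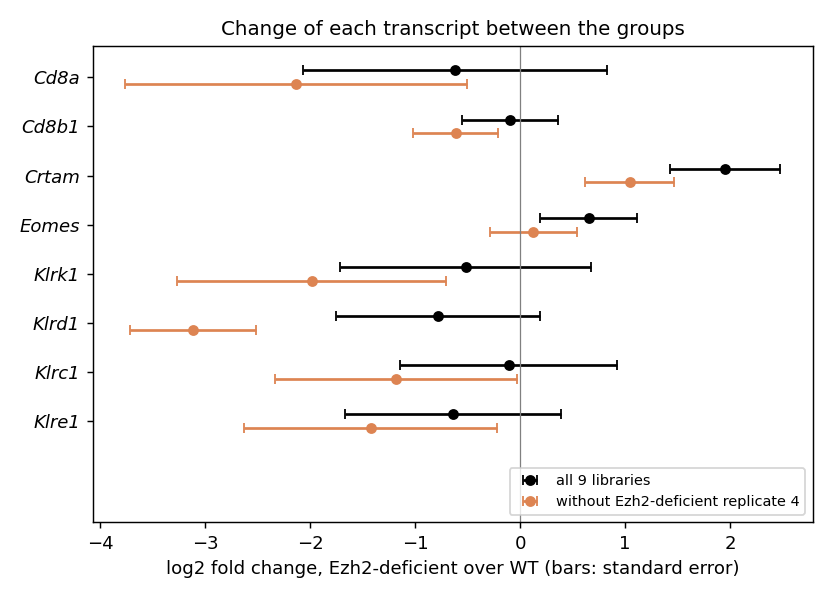
Log2 fold change of each transcript, Ezh2-deficient over WT (horizontal axis), with its standard error, from all 9 libraries (black) and without Ezh2-deficient replicate 4 (orange). Leaving out that library lowers all 8 values. Crtam moves from 1.95 to 1.04 and Klrd1 from -0.78 to -3.12.

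The receptor transcripts did not keep one proportion to Cd8a. In 8 libraries the 4 genes together gave 13.0 to 34.9 counts per 100 Cd8a counts. The 2 libraries with few counts of either, Ezh2-deficient replicates 2 and 3, lay inside that range at 24.4 and 25, with wide exact 95% counting intervals of 10.9 to 49.5 and 4.53 to 92.6. WT replicate 3 stood apart with 300 receptor counts per 100 Cd8a counts (interval 227 to 400), from 207 and 69 counts. Its Klrd1 (3.44 CPM) and Klrk1 (1.61 CPM) were the median and the lowest of the WT group, with Cd8a at 1.98 CPM. Within the receptors, Klrd1 counts were 2.14 times Klrk1 counts in that library, and 0.347 to 1.27 times in the other 6 with more than 9 Klrk1 counts.

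Per kilobase of exon and averaged over the 9 libraries, the members ranked from Cd8b1 (19.1 ± 9.31 CPM per kilobase, SD) and Cd8a (9.83 ± 9.46) through Klrd1 (2.30 ± 1.80), Eomes (1.77 ± 1.09), Klrk1 (0.442 ± 0.358), Klrc1 (0.31 ± 0.281) and Klre1 (0.17 ± 0.134) to Crtam (0.0998 ± 0.114). The order differed between the groups at 2 places. In the Ezh2-deficient group Eomes (2.21) lay above Klrd1 (1.61) and Crtam (0.169) above Klre1 (0.127), whereas in WT Klrd1 (2.85) lay above Eomes (1.41) and Klre1 (0.204) above Crtam (0.0444), all in CPM per kilobase. Cd8b1 exceeded Cd8a, and Eomes exceeded Klrk1, in 9 of 9 libraries, and Cd8a exceeded Klrd1 in 8. The other neighbours in this order changed places between libraries, since the first exceeded the second in 6 (Klrd1 and Eomes), 7 (Klrk1 and Klrc1), 6 (Klrc1 and Klre1) and 5 (Klre1 and Crtam) of the 9. The exon length of Klrk1 sums all its annotated transcripts, and with the longest transcript alone its mean was 0.975 CPM per kilobase, with the order of the 8 unchanged.

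Several of the members varied together across the cultures. After each group's mean was subtracted, the Pearson correlation of log2 CPM over the 9 libraries was 0.956 between Cd8a and Cd8b1. Among the receptors it was 0.967 between Klrk1 and Klrc1, 0.934 between Klrc1 and Klre1, 0.931 between Klrk1 and Klrd1, and 0.793 between the neighbours Klrd1 and Klre1. Distance did not order these values, since Cd8a and Klrk1, far apart on chromosome 6, reached 0.906. Eomes was closest to Klre1 (0.895) and reached 0.793 with Cd8a. Crtam reached at most 0.677, with Klrd1. These values are descriptions with no p, because the libraries fall into 6 with at least 28.3 CPM and 3 with under 2 CPM of Cd8a, and the 9 points share that division.

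Within the 6 libraries with more Cd8a, 7 relations of Cd8a to the other members were computed. These used log2 CPM with both groups together and no group mean subtracted, unlike the correlations above. None passed an exact permutation test after adjustment (two-sided). The closest was Klrd1, with Pearson's r = 0.785 (exact permutation p = 0.0333, adjusted p = 0.233) and Spearman's rho = 0.771 (exact permutation p = 0.103, adjusted p = 0.36). For Cd8b1, r was 0.948 (exact permutation p = 0.075, adjusted p = 0.262) and rho 0.771 (exact permutation p = 0.103, adjusted p = 0.36). Without the 2 libraries farthest from the median of Cd8a, r was 0.815 for Klrd1 and -0.11 for Cd8b1, so the latter relation rests on those 2.

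Some other genes were closer to Cd8a than any member was. Among 10976 named genes with a mean of at least 1 CPM, the 5 of most similar pattern by the same group-centred correlation were Vim (0.981), Chmp7 (0.981), Arhgdig (0.976), Cmas (0.974) and Fam117b (0.974), and 105 genes reached 0.9. Vim, the intermediate filament gene vimentin, is not specific to CD8 T cells and ranged only from 3148 to 4678 CPM. For Cd8b1 the 5 were Cmas (0.985), Anxa4 (0.979), Klhl24 (0.978), Stom (0.974) and Lrba (0.971), of which 1 was also among those of Cd8a. For Eomes they were Hspa13 (0.981), Gng2 (0.977), Snx25 (0.977), Borcs7 (0.967) and Ttc41 (0.965).

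For the receptors the closest genes included lymphocyte genes of low level. Those of Klrk1 were Zfp54 (0.974), Ly6c2 (0.971), the B cell receptor inhibitor gene Cd22 (0.969), Blzf1 (0.969) and Wscd2 (0.965). Those of Klrd1 were Zfp940 (0.982), Agpat5 (0.978), the chemokine receptor gene Cxcr6 (0.971), Zfp683, which encodes the tissue-residency factor Hobit (0.964), and Il10 (0.961). No gene stood among the 5 closest of both Klrk1 and Klrd1.

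Hypoxia-response transcripts moved with some of these differences. A score over 22 such genes, the mean log2 CPM centred on each gene, was 0.382 to 0.686 in Ezh2-deficient replicates 1 and 4 and WT replicates 1, 2 and 4. It was -0.761 to -0.614 in the other 4 libraries. The 3 libraries with under 2 CPM of Cd8a were among these 4, and WT replicate 5 (score -0.63, Cd8a 41.1 CPM) was the other. The summed level of the 4 receptor genes was 0.228 and 0.0903 CPM in Ezh2-deficient replicates 2 and 3 but 5.94 and 5.69 CPM in WT replicates 3 and 5. The latter were close to the 5.53 and 6.66 CPM of Ezh2-deficient replicate 1 and WT replicate 2, which had scores of 0.517 and 0.382. With the score as a covariate Eomes rose (log2 fold change 0.67, adjusted p = 0.0288; 0.0288 to 0.873 over all alternatives). In that fit the log2 fold changes of Cd8a (-1.77), Klrk1 (-1.50), Klrd1 (-1.54), Klrc1 (-0.72) and Klre1 (-1.17) were lower than without the score, and none passed. Whether the hypoxia response itself sets these levels was not tested.

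**Figure D4:**
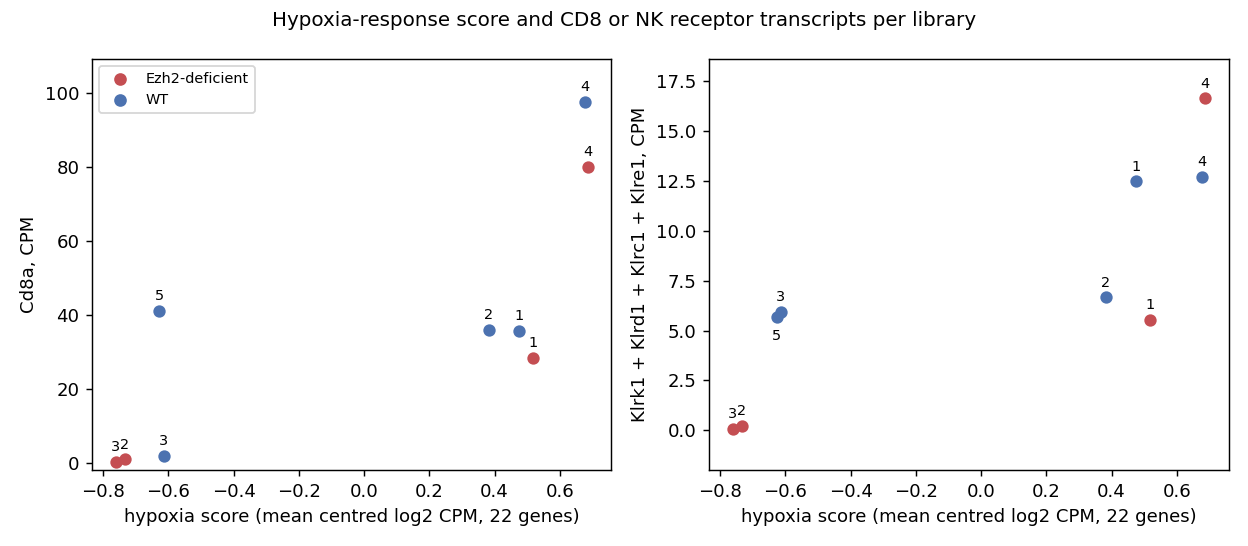
Cd8a (left) and the summed CPM of Klrk1, Klrd1, Klrc1 and Klre1 (right) against the hypoxia score of each library (horizontal axes), with replicate numbers. WT replicate 5 combines a low score with 41.1 CPM of Cd8a, and WT replicates 3 and 5 combine low scores with receptor sums near those of WT replicate 2.

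Most of the receptor family was at low levels in these cultures. Of 26 protein-coding Klr genes, 2 (Klrk1 and Klrd1) reached a mean of 1 CPM, 7 could be tested and 0 passed at a median log2 fold change of -0.30. Of all tested genes 21.9% passed, and 7 genes are too few for the lack of calls to be a result about the family. Counts were found for all but 3 of the 26 in at least 1 library. The 4 members gave 69.7 to 78.2% of all Klr counts in 6 libraries, 42.4% in WT replicate 3, and 10.8 and 4.41% in Ezh2-deficient replicates 2 and 3. WT replicate 3 had counts for 20 Klr genes, more than any other library, and Ezh2-deficient replicate 3 for 4. Klrb1c, which encodes NK1.1, was at 0.874, 0.0228, 0 and 2.39 CPM in Ezh2-deficient replicates 1 to 4, and at 1.01, 0.247, 1.66, 0.661 and 0.0561 CPM in WT replicates 1 to 5. Ly49 genes of the Klra family are near-identical copies, and their counts are uncertain.

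Some defining markers of NK cells were at 0 and others were present at low levels. Of 9 NK cell markers 6 had a count, 3 could be tested and 0 passed, where 21.9% of all tested genes passed. With 3 genes this is not a result about the list. The NKp46 gene Ncr1 and the Ly49 genes Klra4 and Klra8, of uncertain counts, had none in any library, and the adaptor gene Tyrobp stayed at 0 to 0.251 CPM. Klrb1c, at up to 2.39 CPM as given above, and Klra7, at up to 0.689 CPM, were highest in Ezh2-deficient replicate 4 and WT replicate 3, respectively. The summed level of the 9 was 5.12 to 14.0 CPM in the Ezh2-deficient and 4.87 to 8.23 CPM in the WT libraries. Of these sums 1.75 to 10.7 CPM came from the integrin gene Itga2, which activated T cells also express. In WT replicate 3, where Itga2 was lowest, Fcer1g, an adaptor gene that myeloid cells share, was at 2.58 CPM, the highest of the 9. For type 1 conventional dendritic cells, of which some express Cd8a, Clec9a and Cd207 had no count, and the 7 markers summed to 2.23 to 3.31 and 1.71 to 4.07 CPM.

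The B cell gene Ms4a1 was at 0 in Ezh2-deficient replicates 2 and 3, where Klrc1 and Klre1 were also at 0. It was at 1.04 and 2.57 CPM in Ezh2-deficient replicates 1 and 4 and at 1.27 to 2.76 CPM in the WT libraries, and its change was not called (log2 fold change -1.09, adjusted p = 0.474). Cd79a, a signalling chain gene of the B cell receptor, fell by 1.38 on the log2 scale (adjusted p = 0.00716). Cd79b, its partner chain, was at 10.4 to 13.6 CPM in all 9 libraries, and the B cell factor gene Ebf1 at 2.56 to 6.88 CPM. Neither passed (log2 fold changes 0.11 and 0.10, adjusted p = 0.51 and 0.858). The 5 matched markers of gamma-delta T cells summed to 39.9 to 77.4 CPM against 8.18 to 19.3 CPM. The 3 that could be tested rose, where 21.9% of all tested genes passed. They are constant genes of the gamma chain whose near-identical copies make the counts uncertain. The other 2 were too low to test: Cd163l1 had 0 counts in all Ezh2-deficient and 2 to 14 in WT libraries, and Sox13 had 0 to 6 counts in both groups. Ezh2-deficient replicate 3, with the highest of these sums, had the lowest Cd8a. The 6 myeloid markers summed to 20.1 to 27.7 against 9.04 to 17.5 CPM, mostly from the integrin gene Itgam. The 2 that could be tested, Itgam and Adgre1, rose (log2 fold changes 0.80 and 1.75, adjusted p = 0.00817 and 0.00515). Beside the 21.9% of all tested genes, 2 or 3 tested markers are too few for a result about a cell type. Lyz2 and Csf1r, which define macrophages and monocytes, stayed at or below 0.13 CPM. The part of such cells in the levels of the 8 members was not tested.

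Cytotoxic genes were compared with Cd8a library by library. Gzma, a granzyme gene of NK cells and CD8 T cells, was at 14.5, 0.274, 0.0301 and 27.7 CPM in Ezh2-deficient replicates 1 to 4. It was at 10.3, 1.76, 0.344, 1.98 and 1.55 CPM in WT replicates 1 to 5. Gzmk had no count in Ezh2-deficient replicates 2 and 3 and WT replicate 3, the 3 libraries with little Cd8a, and was at 1.92 and 3.93 CPM in Ezh2-deficient replicates 1 and 4 and 0.206 to 1.83 CPM in the other WT libraries. By contrast WT replicate 4, with the most Cd8a of all, had 1.98 CPM of Gzma and 0.45 CPM of Gzmk. Nkg7, a granule membrane gene, was lowest in the 3 libraries with little Cd8a, at 12.1 to 12.3 CPM, and highest in the replicates 4, at 52.1 CPM (Ezh2-deficient) and 32.2 CPM (WT). Ccl5 and Ctsw were not low in all 3 libraries with little Cd8a. Ccl5 was at 7.49 CPM in WT replicate 3, the highest of the WT group, and at 8.95 CPM in Ezh2-deficient replicate 2. Ctsw was at 86.9 and 81.7 CPM in the same libraries, and at 73.1 CPM in Ezh2-deficient replicate 1. Both were highest of the Ezh2-deficient group in replicate 4 and lowest in replicate 3. In WT replicate 4 Ctsw was at 93.9 CPM, the highest of the WT group, and Ccl5 at 7.12 CPM. Prf1 was at 3.16 to 6.74 CPM in the 3 libraries with little Cd8a, but also at 4.04 CPM in WT replicate 5.

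As a list, 5 of 24 CD8 T cell and cytotoxic genes rose and 0 fell, with a median log2 fold change of 0.44. The called share, 20.8%, is close to the 21.9% of all tested genes and is not a result about this list. Cx3cr1, a chemokine receptor gene of effector cells, rose by 1.73 on the log2 scale, the death ligand gene Fasl by 1.34 and the granzyme gene Gzmc by 1.58 (adjusted p = 0.000307, 0.00259 and 0.00599). Srgn, the proteoglycan gene of cytotoxic granules, was at 378 ± 23.6 CPM (SD, n = 4) against 213 ± 34.2 CPM (SD, n = 5; log2 fold change 0.83, adjusted p = 0.000464). Of 11 T-box factors and genes known as their targets, 4 rose and 0 fell (36.4% called against 21.9%, median 0.60). The 4 were Stat4, Il18r1, Fasl and Il2rb, and Fasl is also among the 24 genes above. Of these, Il2rb, the interleukin-2 receptor beta chain gene, was at 2198 to 2325 CPM in the Ezh2-deficient and 1252 to 1714 CPM in the WT libraries (log2 fold change 0.60, adjusted p = 0.0013). These levels of Il2rb did not follow Eomes, since Ezh2-deficient replicates 2 and 4 had nearly the same Il2rb and 5.16 and 17.2 CPM of Eomes.

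Of 4 ligand genes of NKG2D that could be tested, Raet1d, H60b and Ulbp1 rose, and Raet1e did not pass (log2 fold change -0.24, adjusted p = 0.742). Of all 12 partners of CD94/NKG2 and NKG2D, 6 could be tested, 3 rose and 0 fell (median 0.28). The called share was 50%, against 21.9% of all tested genes. Raet1d, which may share reads with other Raet1 genes, rose by 1.83 on the log2 scale (1.01 ± 0.285 CPM, SD, n = 4, over 0.283 ± 0.0809 CPM, SD, n = 5; adjusted p = 0.00423). H60b rose by 1.75, with 0.694 ± 0.159 CPM over 0.205 ± 0.106 CPM (adjusted p = 0.0135). Ulbp1, another ligand gene, rose by 0.58 on the log2 scale, with 55.6 ± 10.4 CPM over 37.1 ± 8.30 CPM (adjusted p = 0.0342). Hcst, which encodes the NKG2D adaptor DAP10, was at 18.3 to 22.2 CPM in the Ezh2-deficient and 19.9 to 22.5 CPM in the WT libraries, also where Klrk1 was at 0. H2-T23, the gene of the CD94/NKG2 ligand Qa-1, did not pass (log2 fold change -0.11, adjusted p = 0.536).

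Signalling partners of CRTAM and CD8 moved both ways. Of 11, 10 could be tested, 2 rose and 2 fell (40% called against 21.9% of all tested genes, median 0.04). Scrib, the polarity gene whose product binds CRTAM, fell by 0.72 on the log2 scale, to 72.1 ± 17.4 from 119 ± 35.9 CPM (adjusted p = 0.036). Pard3, another polarity gene, rose by 2.03, to 9.73 ± 1.76 from 2.37 ± 0.954 CPM (adjusted p = 0.000326). Lck, the kinase gene whose product binds CD4 and CD8, fell by 0.30, and Cd247, the T cell receptor zeta chain gene, rose by 0.47 (adjusted p = 0.0213 and 0.00137). The CRTAM ligand gene Cadm1 was at most 0.187 CPM and was not tested.

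Of 14 genes of the CD4 or CD8 lineage choice, Cd4 included, 3 rose and 2 fell (median 0.07). The called share was 35.7%, against 21.9% of all tested genes. Zbtb7b, which encodes the CD4 lineage factor ThPOK, fell by 0.37 on the log2 scale, to 89.1 ± 11.8 from 115 ± 18.1 CPM (adjusted p = 0.0455). Runx3, the CD8 lineage factor, averaged 114 ± 13.5 CPM in the Ezh2-deficient group and 103 ± 13.7 CPM in WT cultures, with no call (log2 fold change 0.15, adjusted p = 0.346). Its highest value, 134 CPM, was in Ezh2-deficient replicate 4, and the other 3 of that group lay at 106 to 108 CPM. Zbtb7b was at 138 CPM in WT replicate 3, which had the least Cd8a of the WT group, and at 98.6 to 132 CPM in the other 4 WT libraries. In the Ezh2-deficient group it was at 82.5 and 79.2 CPM in replicates 1 and 4, with more Cd8a, and at 106 and 89.1 CPM in replicates 2 and 3. WT replicate 4, with the most Cd8a of all, was at 132 CPM, the highest of those other 4 WT libraries. Satb1, a chromatin organiser of thymocytes, rose by 1.16 (adjusted p = 0.00161), and of the other T cell factors Lef1 rose by 0.50, Tox by 0.33, and Myb fell by 0.82 (adjusted p = 0.00418, 0.0275 and 0.00503). Cd4 itself averaged 413 ± 18.9 CPM and 470 ± 15.5 CPM in the same order, and the groups did not overlap, although the change missed the threshold (log2 fold change -0.19, adjusted p = 0.0644).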

How the data were processed

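Tregs were sequenced with a stranded mRNA kit on an Illumina HiSeq, per the labels. The authors deposited 1 table of raw counts per Ensembl gene. STAR and the build GRCm38 are named in the submitters' processing notes, while the counter, its strand setting and its gene models are not stated there or in the labels. Intervals are exact and reflect counting error alone, since reads are not independent molecules. Symbols, positions and exon lengths came from GENCODE M21, which held 42548 of the 43432 identifiers.

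TMM scaling was applied to the counts after edgeR's default filter (edgeR 4.0.16, R 4.3.3), and 13685 genes were tested with the robust quasi-likelihood F-test. The biological coefficient of variation was 0.206. Adjusted p values are Benjamini-Hochberg values over all tested genes, two-sided. The design text calls the samples biological replicates. No 2 libraries agreed within sampling noise (lowest chi-square per degree of freedom 21.9).

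Genes named were the 8 members, up to 4 genes per list with the smallest adjusted p, and the 5 genes of most similar pattern. Cell type markers were also named, among them Gzmk, Nkg7, Ccl5, Ctsw and Prf1 for CD8 T cells. Gzma, Hcst, Tbx21, Runx3, Raet1e and Cadm1 fall outside this rule and were chosen after their values were seen. The members and lists were chosen with earlier results of these data known. Alternatives used DESeq2 1.42.0 and limma 3.58.1, other scalings and filters, a replicate block, libraries left out and, chosen after the data were seen, the hypoxia score and the longest transcript. The test was checked on simulated counts. A marker gene is not reported here.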

Additional observations from a re-analysis of the deposited data

Results flagged for a closer look

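Within groups of 4 or 5 libraries, single values were compared with the gap to their nearest neighbour, in 66 groups (33 genes in each genotype). The nominal rate of flags by chance, about 1 in 20, is for genes chosen before their values are seen. Some of these genes, Gzma and Runx3 among them, were chosen afterwards, so that rate does not apply to this set. In Ezh2-deficient replicate 4, Crtam was at 2.03 CPM (the other 3 at 0.395 to 0.632), Klrd1 at 6.97 CPM (0.0903 to 0.987) and Runx3 at 134 CPM (106 to 108). In WT replicate 5, Foxp3 was at 1293 CPM (the other 4 at 1486 to 1542). In WT replicate 1, the Ezh2-fl/+ library, Gzma was at 10.3 CPM (0.344 to 1.98). In WT replicate 3, Scrib was at 181 CPM (88.7 to 112).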

How the results depend on the processing

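Of the 8 members, 1 passed the threshold with all libraries. The count was 0 under the filter of 1 CPM in 4 libraries, which left 5 of them to test and not Crtam, 0 with the replicate block and 2 with the hypoxia score as a covariate. It was 1 in each fit without 1 library (lowest and highest 1), and there the gene was Crtam except without Ezh2-deficient replicate 4, where it was Klrd1. Under the replicate block Crtam was at 1.66 (adjusted p = 0.0639). The replicate numbers do not pair the libraries by their deviations, since same-numbered libraries correlated at 0.153, -0.083, 0.114 and 0.187, and not every library correlated best with its own number. Without both replicates 4, where Cd8a was highest, the fit gave Crtam 1.04 (adjusted p = 0.162) and Klrd1 -2.95 (adjusted p = 0.0138). Klrd1, at -0.78 with all libraries, was at -2.20 with limma-voom and -2.19 with the replicate block, with no call. Among fits without 1 library, the log2 fold change of Cd8b1 changed sign (-0.62 to 0.17), as did that of Klrc1 (-1.19 to 0.37), with no call. Cd8a, Klrk1 and Klre1 kept their sign and passed in 0 of 19, 19 and 18 alternatives. Their sizes moved, over all alternatives from -2.14 to -0.06 for Cd8a, -3.07 to -0.14 for Klrk1 and -2.06 to -0.26 for Klre1. Eomes ranged from 0.12, without Ezh2-deficient replicate 4, to 0.90, without WT replicate 1, the Ezh2-fl/+ library. Of 112 list genes that were tested 32 passed, and 24 to 36 passed without 1 library. Over all tested genes 3001 (21.9%) passed, and 1972 to 3168 without 1 library. The fewest of both, 24 list genes and 1972 of all genes, came without Ezh2-deficient replicate 3. The change in the list count was not told apart from that over all genes. Members at a few counts per library, such as Crtam and Klre1, are limited by depth.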
